A study of Mus musculus with 24 samples.

Results

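ATAC-seq peak lists of mouse embryonic stem cells with a hairpin against Chd8 (named shRNA1, 2 libraries) were compared with those of cells with the hairpin named shluci (2 libraries). These are 4 of the 24 libraries of the series. ATAC-seq uses a transposase that cuts and tags DNA where nucleosomes leave it open, so that a peak marks an accessible place. All 4 libraries came from E14, a mouse embryonic stem cell line, with the genotype CTCF AID, in which the DNA-binding protein CTCF carries a degron that leads to its destruction when the auxin IAA is added. No library of the comparison was given IAA. The growth medium held N2, B27, LIF, PD0325901 (a MEK inhibitor) and CHIR99021 (a GSK3 inhibitor), without serum. The labels give neither the hairpin sequences, nor their delivery, nor how far Chd8 fell, and peak lists cannot show the level of a transcript, so the knockdown itself could not be checked. The labels also do not say whether replicates came from separate cultures, so p-values measure only the spread between these libraries, which may be technical.

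CHD8 is a member of the CHD family of ATP-dependent chromatin remodellers, enzymes that move or evict nucleosomes. It has been described as a partner of CTCF, as a negative regulator of beta-catenin and of p53, and as a protein of active promoters that associates with core subunits of H3K4 methyltransferases. Mutations of human CHD8 are linked to autism. CHIR99021 keeps the Wnt pathway active in such cultures through beta-catenin.

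Peaks of the 4 lists were merged where they overlapped by at least 1 bp, which gave 309244 regions. A region was lost when both shluci lists and neither shRNA1 list called it. It was gained when both shRNA1 lists and neither shluci list did. Of the 74935 regions called by both shluci lists, 9658 (12.9%) were lost. Of the 70657 regions called by both shRNA1 lists, 6753 (9.56%) were gained. All 4 lists called 48945 regions, which are named kept here. A place without a peak is below the limit of its list, which is not an absence of accessibility.

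Among regions in introns or between genes, the 3 lost and 3 gained ones with the highest mean within-list percentile of −log10 p are shown by 151 bp around their summits, as examples of tall peaks in both libraries of one group. Sequences are from GRCm38, plus strand, and capitals mark a match to one of the 16 motifs searched. The first 3 were lost. They lie at chr16:42712226-42712376 between genes, at chr10:23781078-23781228 between genes and 5936 bp from the start of the ribosomal protein gene Rps12, and at chr7:73990281-73990431 in an intron of St8sia2.
Lost, nearest start Gm49739: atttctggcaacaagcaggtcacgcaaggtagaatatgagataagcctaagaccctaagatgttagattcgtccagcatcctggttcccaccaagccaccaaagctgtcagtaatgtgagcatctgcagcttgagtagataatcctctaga
Lost, nearest start Snora33: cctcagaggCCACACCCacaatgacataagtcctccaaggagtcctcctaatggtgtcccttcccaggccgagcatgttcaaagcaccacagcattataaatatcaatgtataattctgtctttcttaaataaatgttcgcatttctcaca
Lost, intron of St8sia2: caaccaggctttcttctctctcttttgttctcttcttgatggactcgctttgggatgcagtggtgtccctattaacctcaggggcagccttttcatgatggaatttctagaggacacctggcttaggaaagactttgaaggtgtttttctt
The next 3 were gained. They lie at chr5:35448085-35448235 between genes, at chr11:3161305-3161455 in an intron of Sfi1, and at chr14:20048034-20048184 between genes.
Gained, nearest start Gm43377: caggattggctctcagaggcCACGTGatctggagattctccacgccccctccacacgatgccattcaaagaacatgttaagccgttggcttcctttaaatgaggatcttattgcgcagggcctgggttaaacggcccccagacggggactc
Gained, intron of Sfi1: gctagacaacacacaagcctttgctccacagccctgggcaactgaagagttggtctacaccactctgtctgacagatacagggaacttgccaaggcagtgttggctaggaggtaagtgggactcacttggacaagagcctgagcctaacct
Gained, nearest start Gm48339: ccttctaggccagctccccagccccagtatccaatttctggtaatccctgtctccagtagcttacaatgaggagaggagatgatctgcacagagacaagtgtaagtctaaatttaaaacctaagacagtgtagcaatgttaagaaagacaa
The capitals in the Snora33 sequence are the KLF motif GGGTGTGG, read on the minus strand, which 6.32% of all regions hold within 250 bp of the summit. The capitals in the Gm43377 sequence are the E-box CACGTG, which 9.33% of all regions hold. The other 4 sequences held no match to the 16 motifs.

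The values behind these 6 regions are summit heights, the number of reads piled up at the highest point of a peak. They were recovered from the authors' fold and p under the assumption that MACS2 ran without a control. The Gm49739 region had 16 reads in each shluci library and no peak in either shRNA1 list. The Snora33 region had 24 and 23 reads in shluci. The St8sia2 intron, in the gene of a sialyltransferase that builds polysialic acid, had 13 and 20. Among the gained regions, the shRNA1 libraries had 13 and 11 reads at Gm43377 and 14 and 14 at Gm48339. The Sfi1 intron had 44 and 40 reads, the highest of all gained regions in each shRNA1 library, and no shluci peak. Its within-list percentiles of −log10 p were only 87.2 and 91.3, close to the 86.8 and 91.3 of Gm48339 with 14 and 14 reads. The local background at Sfi1 was thus higher, and the height alone does not make it the strongest gained region. At Sfi1 a shluci peak was also near. Its gap to the nearest shluci peak was 40 bp. Of the other 20 libraries of the series, 4 called the Sfi1 region, and 12 to 15 called each of the other 5. Both libraries of the second Chd8 hairpin, shRNA2, called all 3 lost regions as well as Gm43377 and Gm48339, and neither called Sfi1. Short gaps to a peak of the other group also lay beside Gm49739 (39 bp), Snora33 (143 bp) and Gm48339 (81 bp). St8sia2 and Gm43377 stood farther off, at 9265 and 2928 bp, but St8sia2 was called by only one shluci list when a peak had to cover at least 50% of the region.

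The lists held 154566 and 166697 peaks in shluci replicates 1 and 2, and 160654 and 149422 in shRNA1 replicates 1 and 2. Implied depth was close in all 4, at 20.5 M reads (M, mega) or slightly less. Peak width was not: the median peak spanned 81 and 120 bp in shluci and 95 and 75 bp in shRNA1, so the widest peaks were in one shluci library and the narrowest in one shRNA1 library. The lowest summit height was 4 reads in each list, and the median was 7 reads in 3 lists and 8 in shluci replicate 2. The genome-wide background of piled-up reads differed too, at 0.361 and 0.611 in shluci and 0.436 and 0.316 in shRNA1. Heights of different libraries are therefore not on one scale and can be compared within a library only.

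Libraries of the same group shared about as many regions as libraries of different groups. The shluci pair shared 33.6% of the regions that either called, and the shRNA1 pair shared 35.2%. The 4 pairs across the groups shared 34.2%, 34.4%, 36.2% and 33.4%. The mean was 34.4% within groups and 34.5% between them, a difference of -0.104 percentage points (exact permutation test, two-sided, p = 1.00). Most regions rested on a single list: 178700 (57.8%) were called by 1 library, 50308 (16.3%) by 2, 31291 (10.1%) by 3 and 48945 (15.8%) by all 4. No test per region was run. An exact permutation test of 2 libraries against 2 cannot give a two-sided p under 0.333.

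Lost and gained regions were low peaks. The median summit of a lost region had 6 reads in shluci replicate 1 and 7 in replicate 2, and that of a gained region had 6 in both shRNA1 libraries. The median kept region had 11 and 16 reads in shluci and 13 and 10 in shRNA1. Single-library regions had medians of 5, 6, 5 and 5 reads, just under the lost and gained ones. The tallest lost summit reached 30 and 43 reads in the shluci libraries, while the tallest kept summits reached 171 to 201 reads. Lost regions were also short, with a median of 125 bp, as were gained regions, with 101 bp, against 314 bp for kept regions, which are longer in part by construction, since they merge peaks of 4 lists and not of 2.

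**Figure D1:**
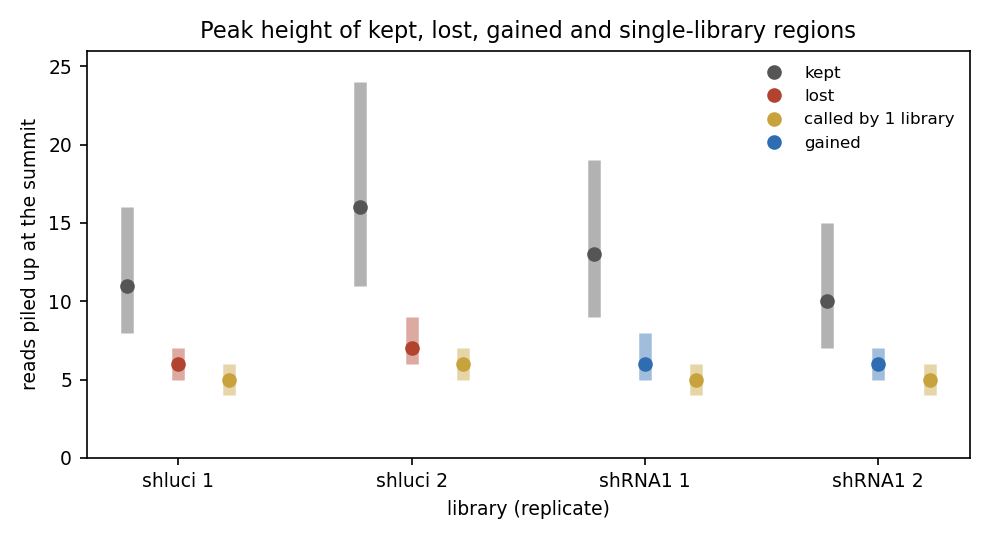
Reads piled up at the summit (y axis) in each of the 4 libraries (x axis), for kept, lost, gained and single-library regions. Points are medians and bars run from the 25th to the 75th percentile of regions, and the kept medians of 10 to 16 reads stand above the lost and gained medians of 6 or 7. Background differs between libraries, so heights compare within a library only.

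Loss and gain were ranked by the strength of the peak within its own list (the percentile of the authors' −log10 p, averaged over the pair that called it). Below the 10th percentile, 323 of 565 regions (57.2%) were lost and 201 of 485 (41.4%) were gained. Above the 90th percentile, 3 of 12517 (0.0240%) were lost and 1 of 12115 (0.00825%) was gained. Between these ends the share fell with each step of 10 percentiles, for loss and for gain. In every step of 10 percentiles, promoters had lower shares than distal regions, which lie over 2000 bp from any annotated start. From the 40th to the 50th percentile, for example, 16.3% of promoter and 24.8% of distal regions were lost, and 11.3% and 18.6% were gained.

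**Figure D2:**
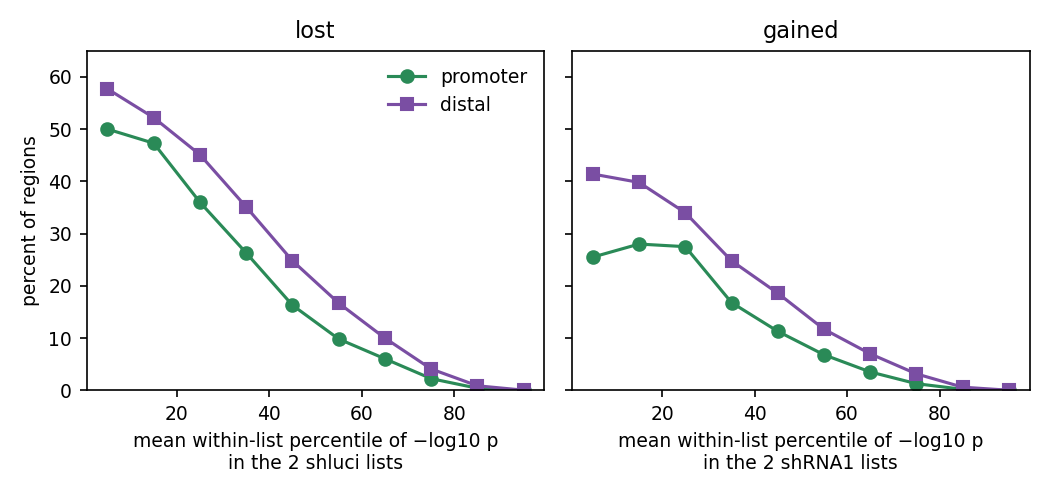
Percent of regions lost (left) and gained (right) by the mean within-list percentile of −log10 p in the pair of lists that called the region, for promoters (circles) and distal regions (squares). Points stand for steps of 10 percentiles, the curves fall towards the strongest peaks, and the distal curve lies above the promoter curve.

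Promoters of protein-coding genes, whose summit lies at most 500 bp from a start in the annotation, were the class least often lost or gained. Of 14438 such regions called by both shluci lists, 646 (4.47%) were lost, and of 14282 called by both shRNA1 lists, 479 (3.35%) were gained, against 12.9% and 9.56% over all regions. Promoters of other genes stood at 12.0% lost and 8.22% gained. Among these, promoters of lincRNAs had 10.3% lost and 7.49% gained, and promoters of processed pseudogenes had 17.7% and 10.5%. Introns supplied the most lost and gained regions, 3889 (16.0%) and 2729 (12.1%). Intergenic regions up to 100 kb from a start gave 3261 (14.6%) and 2125 (10.3%), and those beyond 100 kb gave 215 (16.5%) and 150 (12.2%). Coding exons had 13.9% lost and 12.2% gained, and other exons had 17.8% and 13.6%. Together, distal regions made up 81.6% of lost, 80.0% of gained and 63.5% of kept regions.

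**Figure D3:**
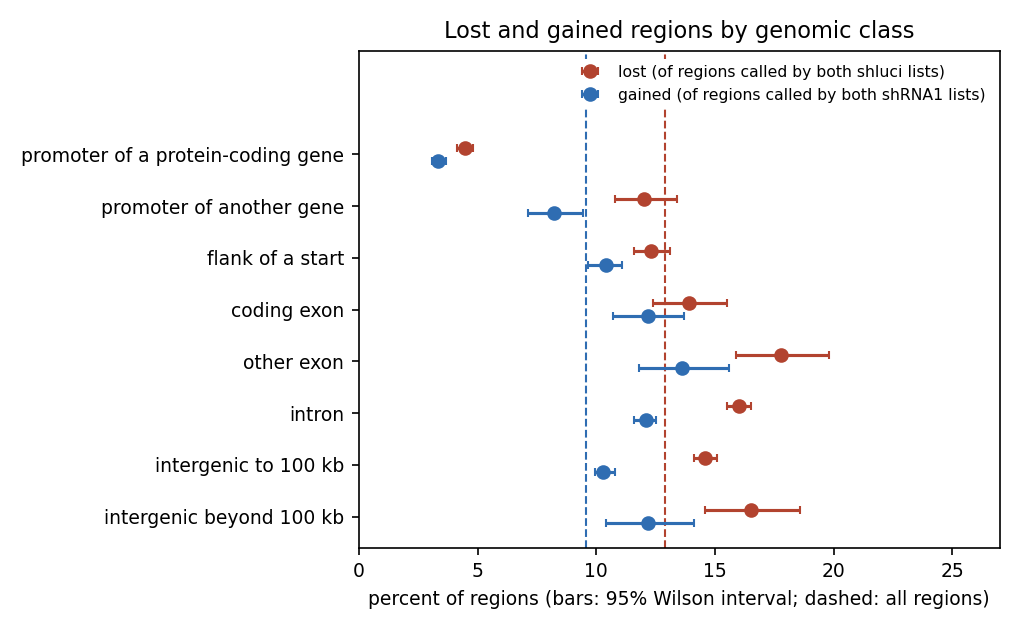
Percent of regions lost and gained (x axis) in 8 genomic classes (y axis), with 95% Wilson intervals. The intervals cover counting of regions only, which are not replicates of a condition, and promoters of protein-coding genes lie left of both dashed lines at 12.9% and 9.56%.

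CpG content moved with the classes. Regions with at least 10 CpG within 100 bp of the summit had 4.71% lost and 3.65% gained, and those with none had 16.1% and 10.8%. Among promoters the shares were 3.19% and 2.45% with at least 10 CpG, and 9.07% and 6.52% with fewer. Distal regions with at least 10 CpG had 10.1% lost and 7.27% gained. Regions that were at least 50% repeat-masked had 16.8% lost and 10.5% gained, against 10.8% and 8.86% without a masked base. The share lost ran from 12.1% to 13.9% over chromosomes 1 to 19 and X, and the share gained from 8.37% to 10.7%, so no chromosome stood far from the rest.

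The lists as a whole differed little in composition. Promoters of any gene made up 18.3% and 16.2% of the shluci lists and 18.8% and 19.3% of the shRNA1 lists. The groups did not overlap, with SDs of 1.49 and 0.363 (n = 2 each). The difference of 1.76 percentage points was slightly larger than the spread between replicates of 1.54 (exact permutation test, two-sided, p = 0.333, the smallest p of the design). Shluci replicate 2, with the longest list and the widest peaks, had the lowest promoter share, and without it the difference was 0.701. Introns made up 35.3% ± 0.211 of the shluci lists and 34.5% ± 0.175 of the shRNA1 lists (SD, n = 2 each), a difference of -0.834 percentage points with a spread of 0.274 (exact permutation p = 0.333). Mean GC within 100 bp of the summit was 51.2% ± 0.258 and 51.8% ± 0.176. The share of peaks with a CTCF motif was 6.55% and 6.23% in shluci and 6.46% and 6.40% in shRNA1, so the groups overlapped there. Over the 14 measures of composition compared, the Benjamini-Hochberg adjusted exact permutation p was 0.583 for the promoter and intron shares, and none could pass 0.05 in this design.

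At the gene level, 634 of 10964 protein-coding genes with a promoter region in both shluci lists had a lost one. A kept promoter region stood beside the lost one in 312 of these 634, and 132 had no promoter region called by either shRNA1 list. In the other direction 470 of 10878 genes had a gained promoter region, 254 of them with a kept one as well, and 76 had no promoter region called by either shluci list.

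The strongest lost promoters belonged to Bloc1s3, Cdc34, Srp14, Thumpd1, Wdr63 and Mapk7. The highest was Bloc1s3, a subunit of a complex for lysosome-related organelles, at chr7:19508318-19508555. It had 25 and 19 reads in the shluci libraries, and no region assigned to the promoter of the gene was called by an shRNA1 list. Cdc34, a ubiquitin-conjugating enzyme of the cell cycle, had 18 and 23 reads at chr10:79681586-79681887, and again no shRNA1 list called a region assigned to its promoter. In both genes a peak of an shRNA1 list lay just outside the lost region, 17 bp and 62 bp away. The one at Bloc1s3 reached within 500 bp of the start of the gene, so accessibility there was not gone. Srp14, a protein of the signal recognition particle, had 14 and 20 reads. Thumpd1 had 17 and 14, Wdr63 had 15 and 10, and Mapk7, the kinase also called ERK5, had 10 and 15. These 4 genes each kept another promoter region in all 4 libraries. From 11 to 18 of the other 20 libraries called the 6 lost regions. At −log10 q of at least 10, the regions of Bloc1s3 and Cdc34 stayed lost, and those of Srp14, Thumpd1, Wdr63 and Mapk7 did not.

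The strongest gained promoters were those of Eno1, Fez2, Mat2a, Gm14327, Smarca1 and Rps12. Eno1, a glycolytic enolase, had 22 and 15 reads in the shRNA1 libraries at chr4:150237225-150237345. Mat2a, which makes the methyl donor S-adenosylmethionine, had 21 and 13 reads, beside a kept promoter region. Fez2 had 13 and 14 reads, also beside a kept one. Smarca1, the ATPase SNF2L of the ISWI remodellers, had 10 and 7 reads. Rps12 had 14 and 12 reads within a region of 59 bp. A shluci list called another promoter region of each of these 6 genes, and a shluci peak lay 36 to 250 bp from each gained region. From 9 to 15 of the other 20 libraries called the 6 regions. With only peaks of −log10 q of at least 10, no more shRNA1 than shluci lists called the regions of Fez2, Smarca1 and Rps12. The regions of Eno1, Mat2a and Gm14327 did not stay gained at that cut either. Of 53 named lost and gained regions, the 51 bp around the summit occurred once in the genome for 51. The exceptions were Eno1 (2 copies) and Gm14327 (8 copies), where reads of different copies cannot be told apart and the values are uncertain. Only exact copies present in the assembly were counted.

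Inside genes, the strongest lost regions were intronic. They included St8sia2, described above, and Pdzrn4, with 11 and 18 reads in shluci. Arid5b and Arid5a, members of the ARID family of nucleic acid-binding proteins, had 16 and 25 reads and 16 and 17 reads. The Bclaf3 intron had 9 and 17 reads and held an OCT4-SOX2 motif. The strongest gained regions in gene bodies lay in an exon of H2-Eb2 outside its coding sequence (16 and 9 reads in shRNA1), Sfi1, a coding exon of the calcium channel gene Cacna1a (14 and 16 reads, with a CTCF motif), and introns of C2cd2, Ptpn9 and Ppm1l, with 10 or 11 reads each. Gaps to the nearest peak of the other group ran from 53 bp (Arid5a) to 9306 bp (Bclaf3) for these lost regions, and from 40 bp (Sfi1), 96 bp (Cacna1a) and 128 bp (Ptpn9) to 15296 bp (H2-Eb2) for the gained ones. At −log10 q of at least 10, only St8sia2 of these lost regions stayed lost and only Sfi1 of the gained ones stayed gained. No more shRNA1 than shluci lists then called the C2cd2 and Ppm1l regions.

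Between genes, further lost regions lay near Gm40264 (14 and 13 reads), Dars (12 and 18), 5830428M24Rik (11 and 15) and Atp6v0c-ps2 (9 and 14). The gained ones included a region of 52 bp with a CTCF motif, 15141 bp from the start of the de novo DNA methyltransferase gene Dnmt3a, at chr12:3791874-3791925, with 12 and 16 reads. Another had the pseudogene Gm48101 as its nearest start and lay 24654 bp from the start of Esrrb, at chr12:86336379-86336541, with 12 and 10 reads and a CTCF motif, and 2 of the other 20 libraries called it. One gained region lay 15448 bp from the start of Gm43699, with 10 and 11 reads, and one lay beyond 100 kb from any start, with 11 and 9 reads. At −log10 q of at least 10, none of the regions of this paragraph stayed lost or gained. No more shRNA1 than shluci lists then called the Gm48101 region and the one beyond 100 kb.

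Regions were also assigned to the nearest start within 100 kb. The lincRNA gene 4732490B19Rik had the most lost regions, 9 of 17 called by both shluci lists, followed by Kcnn3, a calcium-activated potassium channel gene, with 7 of 10. Ank3, which encodes ankyrin-G, had 6 of 22, and Abcc4, an efflux transporter gene, had 5 of 15. Arid5b had 5 of 31. Esrrb, an orphan nuclear receptor of naive pluripotency, had 5 of 43 lost and none of 31 gained by this assignment, which gives the gained region above to Gm48101. The share at Esrrb, 11.6%, was below that of all regions. These genes were picked for their counts, and over all regions 12.9% were lost and 9.56% gained. The most gained regions lay near Zfp462, with 6 of 19 called by both shRNA1 lists. Gm3227 had 5 of 13, 9630028H03Rik 5 of 20, Pawr 5 of 23, Tspan5 5 of 23 and Tiam1, a Rac exchange factor, 5 of 29. The genes differed in their number of regions in the 4 lists, from 33 at Kcnn3 to 150 at Tiam1.

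Motif matches were counted within 250 bp of the summit on both strands, and a match is a description and not a binding site. The CTCF consensus, with at most 1 mismatch, was found in 8.02% of kept, 6.45% of lost and 6.74% of gained regions, and in 5.57% of all regions. Of the regions with it that both shluci lists called, 623 of 5963 (10.4%) were lost, and of those that both shRNA1 lists called, 455 of 5745 (7.92%) were gained. Distal regions with the motif had 11.4% lost and 8.72% gained, against 15.4% and 11.4% of all distal regions. With only peaks of −log10 q of at least 10 the order against all regions turned: regions with the CTCF motif had 12.2% lost and 5.98% gained, above the 11.2% and 3.99% of all regions. All distal regions had 15.0% lost and 5.95% gained at that cut. The mix of classes also differed. Promoters were 5635 of the 13395 regions called by both shluci lists, against 16737 of 74935 in the main setting. The OCT4-SOX2 composite TTGTNATGC (1.72% of all regions), bound by the core pluripotency pair, had 12.0% lost and 6.93% gained among distal regions. The POU octamer ATGCAAAT (3.47% of all regions), whose first letters can overlap the composite, had 12.6% and 8.57%. ESRRB (TCAAGGTCA, 2.18% of all regions) had 14.7% and 8.75%. The TCF/LEF motif CTTTGATC (2.06% of all regions), that of the Wnt effectors, had 204 of 1313 distal regions lost (15.5%) and 90 of 1101 gained (8.17%). Lost shares for it were level with all distal regions, and gained shares were lower. TEAD (ACATTCCA, 2.57% of all regions) had 14.2% and 12.0%, and AP-1 (TGANTCA, 14.9% of all regions) had 15.5% and 10.9%.

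Motifs common in CpG-rich promoters had low shares over all regions. ETS (CCGGAAGT, 1.27% of all regions) had 7.17% lost and 4.54% gained, NRF1 (CGCATGCG, 0.606%) had 5.99% and 5.78%, and the GC box (GGGGCGGGG, 3.96%) had 6.59% and 4.62%. Among distal regions, ETS stood at 15.4% lost and 9.89% gained, NRF1 at 10.8% and 11.8% and the GC box at 11.9% and 8.11%, against 15.4% and 11.4%. YY1 (AAGATGGCG, 1.32% of all regions) had 16.2% lost and 7.58% gained among distal regions. Regions with the motif that were at least 50% repeat-masked had 72 of 338 lost (21.3%) and 19 of 257 gained (7.39%), and the others had 61 of 865 lost (7.05%) and 37 of 800 gained (4.62%). All regions that were at least 50% repeat-masked had 16.8% lost and 10.5% gained.

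**Figure D4:**
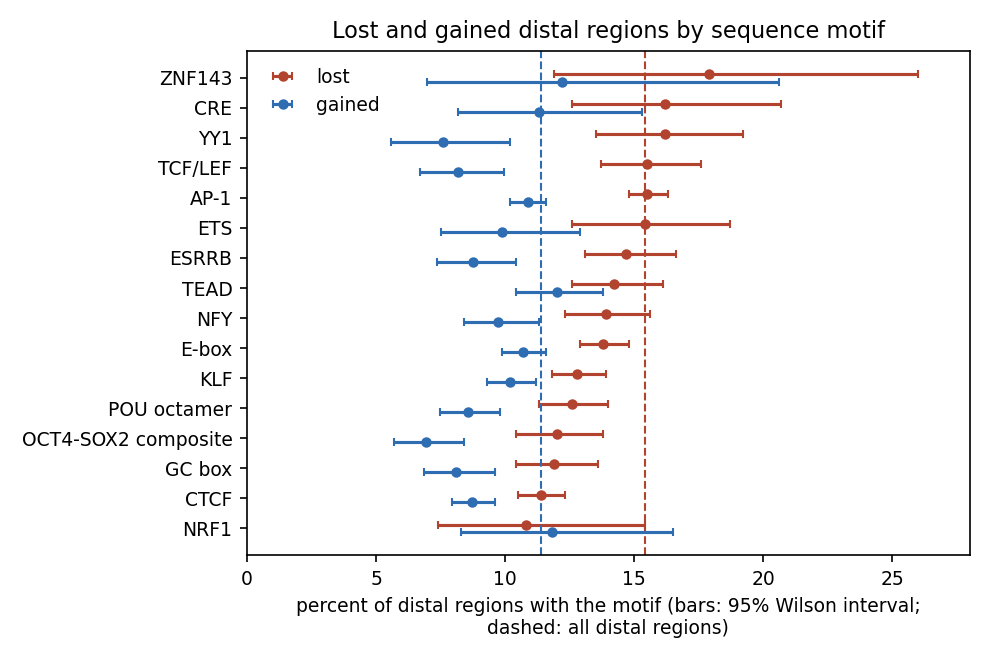
Percent of distal regions with each of 16 motifs that were lost or gained (x axis), with 95% Wilson intervals that cover counting of regions only. Dashed lines mark all distal regions at 15.4% and 11.4%, and CTCF, OCT4-SOX2, the POU octamer, the GC box, KLF, NFY, the E-box and ESRRB lie left of both.

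Promoters of Chd8, Ctcf and 2 pluripotency genes were looked at one by one. The only Chd8 promoter region was kept. It had 27 and 51 reads in shluci and 49 and 29 in shRNA1, and all of the other 20 libraries called it. Its calls say nothing of the knockdown, since a hairpin acts on the transcript. The region 330 bp from the Ctcf start was kept with 12, 19, 13 and 7 reads, while the region 7 bp from that start was called, among the 4 lists, by shluci replicate 2 and shRNA1 replicate 1, with 19 and 12 reads, and by 16 of the other 20 libraries. The region closest to the Nanog start was kept with 15, 37, 25 and 12 reads. At Sox2 neither of 2 promoter regions was called by shRNA1 replicate 2, while the other 3 libraries had 12, 13 and 14 reads at one and 9, 10 and 11 at the other. These 2 regions are neither lost nor gained by the definition.

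The gene lists are read against all protein-coding genes, of which 634 of the 10964 with a promoter region in both shluci lists had a lost one, and 470 of the 10878 with one in both shRNA1 lists had a gained one. Of 22 pluripotency genes, 13 had a kept promoter region, 2 a lost one and 1 a gained one. Both shluci lists called a promoter region of 14 of the 22, and both shRNA1 lists of 16. Klf2 and Zfp42 (Rex1) each lost one promoter region and kept another. The Klf2 region had 13 and 21 reads in shluci, and the Zfp42 region had 7 and 12. Lin28a, an RNA-binding protein gene, gained its region with 6 and 7 reads in shRNA1. Distal regions of these genes had 12 of 135 lost (8.89%) and 6 of 117 gained (5.13%), below the 15.4% and 11.4% of all distal regions. Promoters with a peak numbered 15 and 16 of 22 in shluci and 18 and 16 in shRNA1. Markers of other cell types were called too: 8, 11, 9 and 6 of 18 neural promoters, 5, 9, 9 and 8 of 14 mesendoderm promoters, 6, 8, 6 and 7 of 10 trophoblast promoters, and 6, 7, 7 and 6 of 10 fibroblast promoters, in the order shluci 1, shluci 2, shRNA1 1 and shRNA1 2. The share of all protein-coding genes with a called promoter was not computed per library, so these counts cannot be read as high or low. An open promoter is not expression, and the part of other cells in the counts was not tested.

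Of 24 genes of the Wnt pathway and its targets, 13 had a kept promoter region, none a lost one and 4 a gained one (Apc, Nkd1, Porcn and T), against 634 of 10964 and 470 of 10878 protein-coding genes. Both shluci lists called a promoter region of 16 of the 24, and both shRNA1 lists also of 16. Apc, a scaffold of the beta-catenin destruction complex, gained a region with 10 and 11 reads beside 2 kept ones. Porcn, which acylates Wnt ligands, had 9 and 7 reads, and Nkd1, a feedback inhibitor, had 8 and 4. T (Brachyury), a mesendoderm gene, had 4 and 5 reads, at the floor of the lists. At Apc, Nkd1 and Porcn a shluci list called another promoter region. Distal regions of the list had 9 of 66 lost (13.6%) and 4 of 54 gained (7.41%), against 15.4% and 11.4% of all distal regions.

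Of 18 genes of the p53 list, Trp53 itself among them, 12 had a kept promoter region, 2 a lost one and 1 a gained one, against the same 634 of 10964 and 470 of 10878 genes. Both shluci lists called a promoter region of 15 of the 18, and both shRNA1 lists also of 15. Distal regions had 2 of 37 lost (5.41%) and 5 of 41 gained (12.2%), against 15.4% and 11.4% of all distal regions. Trp53, which encodes p53, had 9 and 11 reads in the shluci libraries at chr11:69580031-69580118, 299 bp from its start. It was a weak peak, at within-list percentiles of 26.5 and 32.2, and an shRNA1 peak lay 656 bp away. No region assigned to the promoter of Trp53 was called by either shRNA1 list, and none of the other 20 libraries called the lost one. Fas, a death receptor gene, had 6 and 6 reads in its lost region. Both shRNA1 lists called another promoter region of Fas, which of the shluci lists only replicate 2 called. Cdkn1a, the gene of the p21 inhibitor of the cell cycle, gained a region with 6 and 11 reads, 2326 bp from the nearest shluci peak. Shluci replicate 2 called 2 other promoter regions of Cdkn1a.

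Of 12 genes of the H3K4 methyltransferase complexes, 6 had a kept promoter region and 2 a lost one, Ash2l and Rbbp5, which both encode core subunits. Both shluci lists called a promoter region of 8 of the 12, and the share over all protein-coding genes was 634 of 10964. Ash2l lost 2 regions, with 10 and 15 reads and with 7 and 14 reads in shluci, and Rbbp5 lost one with 6 and 8. Promoter regions of both genes were still called by an shRNA1 list. Of 22 genes of the E2F and G1/S list, 18 had a kept promoter region, and Ccne2 (cyclin E2) had a lost one with 10 and 13 reads beside another that was kept. Both shRNA2 libraries called the lost Ccne2 region. No promoter of the 9 CHD remodellers, of the 13 CTCF and cohesin genes or of the 28 autism-linked genes was lost or gained. Both shluci lists called a promoter region of 5, 9 and 17 of these genes, and both shRNA1 lists of 5, 9 and 18. Over all protein-coding genes with a promoter region in both shRNA1 lists, 470 of 10878 had a gained one. Distal regions of the CTCF and cohesin genes had none of 14 lost and 5 of 15 gained (33.3%), those of the autism-linked genes had 14 of 93 lost (15.1%) and 8 of 76 gained (10.5%), and those of the CHD remodellers had 3 of 21 in each direction, against 15.4% and 11.4% of all distal regions. Among differentiation markers, Map2 had a lost promoter region, and Mesp1, T and Pdgfra had gained promoter regions, with 4 to 9 reads in each library that called them.

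The other 20 libraries of the series, which the definition did not use, called both kinds of region in part. The second hairpin against Chd8, shRNA2, is compared in the study with the same shluci libraries, so the sets share their controls. Its 2 libraries called 40.4% and 41.4% of lost and 40.8% and 40.5% of gained regions, against 92.5% and 92.2% of kept ones. Gained and lost regions were thus called about equally with shRNA2, with differences of 0.334 and -0.904 percentage points. Neither shRNA2 library called 4098 lost regions (42.4%), and neither called 2833 gained ones (42.0%). Both called 2341 lost regions (24.2%) and 1566 gained ones (23.2%).

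Lists of other experiments gave other orders. The shluci libraries of the Chd4 set called a larger share of the lost regions (32.6% and 24.7%) than of the gained ones (25.7% and 19.6%). So did every library with a hairpin against Chd4, with 17.2% to 25.2% of lost and 14.1% to 21.6% of gained regions. The 8 libraries of the CTCF lines did so too, with 57.3% to 64.7% of lost and at most 58.9% of gained regions. Those labelled IAA were given IAA, and those labelled oectrl alone were not. The 4 libraries labelled serum each called a smaller share of the lost regions (22.3% to 31.2%) than of the gained ones (24.0% to 35.3%). Among them, those labelled CTCF_12h were given IAA. Peak numbers differ among these sets, from 59786 peaks upwards, and their depth was not computed, so shares are compared within a library only. Lost and gained promoters were called more often than distal ones in the CTCF lines: 78.5% of lost and 78.1% of gained promoters in replicate 1 of the control line, against 60.1% and 55.1% of distal regions.

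**Figure D5:**
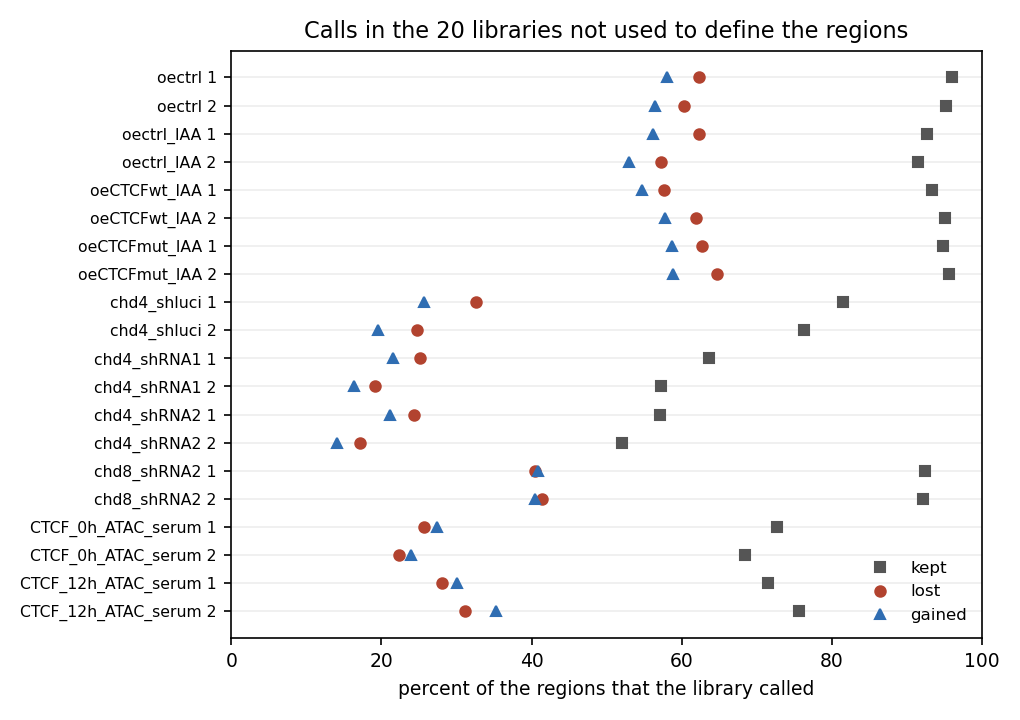
Percent of kept, lost and gained regions (x axis) that each of the other 20 libraries called (y axis: group and replicate as in the labels). The symbols for lost and gained lie close together in each library and below the kept symbol, and in the Chd8 shRNA2 libraries they coincide near 40% to 41%.

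Neighbouring peaks were close to many changed regions. A peak of the other group lay within 500 bp of 50.8% of lost and 56.0% of gained regions, with median gaps of 453 and 282 bp. When regions with such a neighbour were left out, 4751 lost and 2973 gained regions remained. When each library was left out in turn, so that 1 list alone stood for its group, the number lost ran from 16114 (without shRNA1 replicate 2) to 67704 (without shluci replicate 1), and the number gained from 12193 (without shluci replicate 1) to 51084 (without shRNA1 replicate 2).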

How the data were processed

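The authors' peak lists, 1 per library, were used as deposited. Trim Galore, Bowtie2, MACS2, deepTools and mm10 are named, without versions or roles, per the submitters' processing notes. Each deposited list gives a fold (a ratio of summit signal to local background) and, per peak, a −log10 p and a −log10 q, which are the authors' values and were used only within a list. Depth is not given in the sources used here; it and the summit heights were computed assuming MACS2 without a control and its preset genome size (1870000000 bp). Whole heights within 0.01 of −log10 p were found for all peaks of 2 lists and all but 1 of the other 2, against 1.10% to 1.35% of peaks when the fold was set 5% off.

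Regions were merged and called with Python 3.11.15, numpy 2.4.6, pandas 2.3.3 and scipy 1.17.1, and checked on simulated lists and against bedtools 2.31.1. Classes used GRCm38 and GENCODE vM21 (77161 starts of 55413 genes). Named were the promoters of Chd8, Ctcf, Sox2 and Nanog, the 6 strongest lost and gained regions of 3 classes, the 6 genes with most of each, and list members with a changed promoter. The comparison, members and lists were chosen with earlier results of these data known. Intervals are 95% Wilson. Alternatives were equal list lengths, −log10 q of at least 10, 50% coverage, fixed windows on summits, other promoter and motif rules and each library left out. Pou5f1 had no region within 500 bp of its start. One of the lost regions selected by the rule for named regions is not reported here.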

Additional observations from a re-analysis of the deposited data

How the results depend on the processing

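The 4 lists cut to 149422 peaks each gave 8889 lost and 6649 gained regions, with 14.7% of distal regions lost, and 36 of 36 named regions unchanged. With −log10 q of at least 10 there were 1503 lost and 467 gained regions. Shares lost and gained were then 6.18% and 1.75% of promoters, 15.0% and 5.95% of distal regions and 12.2% and 5.98% of CTCF motif regions, and the last lay above the 11.2% and 3.99% of all regions, where they lay below in the main setting. Then 9 of 36 named regions were unchanged. Peaks covering at least 50% of a region gave 12.9% and 7.79% of promoters and 29.8% and 20.6% of distal regions, and 34 of 36 named regions were unchanged (not St8sia2 and Atp6v0c-ps2). Windows of fixed length on summits gave 3.37% and 1.73%, and 12.9% and 9.10%. Promoters within 1000 bp had 6.63% lost and 4.92% gained. The CTCF motif without mismatch had 7.16% gained. In each of these settings more regions were lost than gained, and promoters had lower shares than distal regions where both were computed. The causes of the shifts were not tested.

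Leaving out each library in turn makes 1 list stand for a group, which enlarges the sets by construction. Lost regions then numbered 16114 to 67704 and gained ones 12193 to 51084. Promoter shares ran from 9.61% to 20.7% lost and 7.93% to 16.9% gained, distal shares from 25.3% to 46.2% and 20.2% to 39.5%, and CTCF motif shares from 19.3% to 27.9% and 17.0% to 23.5%. Without either shRNA1 library gained regions outnumbered lost ones. The difference in promoter share ran from 0.701 to 2.82.

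Alternatives chosen after seeing the data gave 4751 lost and 2973 gained regions with no peak of the other group within 500 bp. They gave 4098 and 1566 where shRNA2 shared the state, a rule that needs absence in both libraries for loss and calls in both for gain.

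With the replicate number as a block the difference in promoter share was 1.76 (exact permutation p = 0.500, the smallest p of that design), and with the crossed pairing it was 1.76 (p = 0.500). Heights of same-numbered libraries deviated in opposite directions (r = -0.163 over 48945 kept regions, which are not independent), and the labels do not say that a number marks anything shared. The lowest summit called had 4 reads in each list, close to the median lost or gained summit of 6 or 7 reads. Depth was not varied.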
